A study of Mus musculus and Bos taurus with 6 samples.

Results

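In the bovine fetal testis, 573 of 11097 SOX9-bound regions lay in 178 chains of 3 or more neighbouring regions, and these chains are described here. The members were chosen by the measured positions of the peaks on the numbered chromosomes of the bovine list, that is by their spacing alone. Peaks with a gap below 500 bp were first merged into 1 region, which turned 11796 peaks into 11097 regions. Regions were then chained wherever the gap from the end of one to the start of the next was at most 10000 bp, and chains of at least 3 regions were kept. The members made up 5.16% of all merged regions and held 603 of the deposited peaks. Because the spacing chose the members, their number, gaps and positions are given as descriptions, with no test.

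SOX9 belongs to the HMG-box transcription factors and turns the supporting cells of the XY gonad into Sertoli cells. It bends DNA as it binds in the minor groove, and it can bind as a dimer on paired sites. Regions bound close together on a chromosome are known from many transcription factors, at promoters with nearby enhancers, in groups of enhancers of 1 gene and in gene-dense stretches where several genes lie side by side. Spacing alone does not show which of these a chain is.

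The chromatin came from gonads of Holstein fetuses collected at day 90 after fertilisation, produced by artificial insemination. Both bovine SOX9 libraries were made with a rabbit antibody raised by the laboratory, and 1 input library of the same tissue had no antibody. Tissue powder was fixed with disuccinimidyl glutarate and then formaldehyde, a double fixation that also holds proteins which touch DNA through a partner. Whole gonads were used, so the list cannot be divided by cell type. How many fetuses entered each library is not given in the sources used here. The mouse list of the same series, set beside the bovine one in places, came from testes of Swiss OF1 fetuses at E13.5, with the same antibody reference and the same numbers of libraries. The labels assign 1 peak list to all libraries of a species, with no height or read count, so depth is unknown and no value has a replicate error. No bovine genome sequence or gene annotation of the build of the list, UMD3.1, was used here, so no gene is named and no sequence is shown. All positions are in UMD3.1 and counted from 1.

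Most chains were short. Of the 178 chains, 147 held 3 regions (82.6%), 23 held 4 and 8 held 5. No chain was longer. For comparison, 889 chains held just 2 regions, called pairs below, and they took 16.0% of all merged regions. Regions standing alone, with no neighbour within 10 kb, were 78.8% of the total. The pairs thus outnumbered the chains of 3, and each further region made chains rarer.

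Chains had a median span of 14219 bp, with quartiles at 11342 and 17343 bp and a range from 4305 to 39225 bp. Chains of 3 had a median span of 13332 bp, chains of 4 of 19617 bp and chains of 5 of 27905.5 bp. Spans of at most 10 kb were seen in 31 chains. Together the chains spanned 2.64 Mb, which was 0.106% of the 2485 Mb between the first and the last peak of the 29 chromosomes. These spans held the 5.16% of regions counted above by definition, since each ran from the start to the end of its own chain. The contrast between these percentages was set by the rule and is no measure of enrichment.

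Gaps took up more of a typical chain than bound sequence did. The median covered share, which is the summed width of the regions divided by the span, was 27.7%, with quartiles at 22.5% and 37.8%. The lowest share was 14.0%, in a chain of 3 on chromosome 19 from 54455172 to 54474289. The highest was 74.6%, also on chromosome 19. Coverage was at least 50 percent in 18 chains and under 20 percent in 23. It was similar in chains of 3 (median 28.3%) and of 4 (27.5%) and lower in chains of 5 (21.2%), of which there were only 8.

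The 8 chains of 5 regions differed widely in layout, from evenly spread to tightly packed. They lay on chromosomes 7, 10, 11, 19, 25, 28 and 29, with 2 of them on chromosome 25. Their spans ran from 15506 to 39225 bp and their 40 regions from 682 to 2762 bp in width.

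The longest chain of all lay on chromosome 25 from 36469280 to 36508504. Its 5 regions measured 1274, 1311, 1147, 1007 and 1804 bp in order along the chromosome, the last made of 2 peaks. The 4 gaps between them were 7809, 8307, 8250 and 8316 bp, so that the largest was only 1.06 times the smallest. From midpoint to midpoint the regions stood 9101.5 to 9721.5 bp apart. No other chain of 4 or 5 regions was as evenly spaced. Over all 31 of these chains the largest gap had a median of 2.72 times the smallest, and it was at or under 1.5 times in 2 chains, the other lying on chromosome 2 from 20808474 to 20833178 with 4 regions and gaps from 4873 to 5685 bp. No sequence of the stretch on chromosome 25 was used here, and whether it is repeated in even steps was not tested.

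The second chain of 5 on this chromosome ran from 2304730 to 2340464 and was nearly as long, at 35735 bp. Its regions measured 978, 1421, 1562, 1066 and 915 bp, widest in the middle. Its gaps were 6424, 8057, 9204 and 6108 bp, and its covered share of 16.6% was the lowest of the 8.

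On chromosome 19, a chain of 34032 bp ran from 27892498 to 27926529. Its regions were all between 994 and 1483 bp wide, and its gaps were 7425, 2144, 9590 and 8383 bp. The smallest gap separated the regions of 994 and 1446 bp, a close couple inside an otherwise open chain. On chromosome 7, from 45330921 to 45361029, the first region was the widest at 2154 bp and the regions that came next measured only 682 and 684 bp. The gaps of this chain were 7186, 3509, 8711 and 4783 bp. A chain of 3 on chromosome 7 (45298116 to 45308541) ended 22379 bp before it.

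Chains of intermediate span were found on chromosomes 29 and 11. The one on chromosome 29 (41679100 to 41704801) spanned 25702 bp with gaps of 4059, 8197, 3917 and 3677 bp, 3 of them of like size. The one on chromosome 11 (10133700 to 10158607) spanned 24908 bp with gaps of 5885, 3783, 7061 and 1897 bp. Region widths were 691 to 1478 bp in the former and 987 to 1642 bp in the latter, and neither chain contained a region over 2000 bp.

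The remaining chains of 5 were compact. On chromosome 10 (89247915 to 89264001) 5 regions of 759 to 1607 bp fitted into 16087 bp, with gaps of 3287, 2281, 1372 and 3750 bp. This chain stood apart, with the nearest outside region 155724 bp away. On chromosome 28 (31313459 to 31328964) the span was 15506 bp and the covered share 52.4%, the highest of the 8. Its widths were 930, 1150, 2762, 948 and 2340 bp, the last made of 2 peaks, and its gaps were 753, 1712, 650 and 4261 bp. It was the only chain of 3 or more on chromosome 28.

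**Figure D1:**
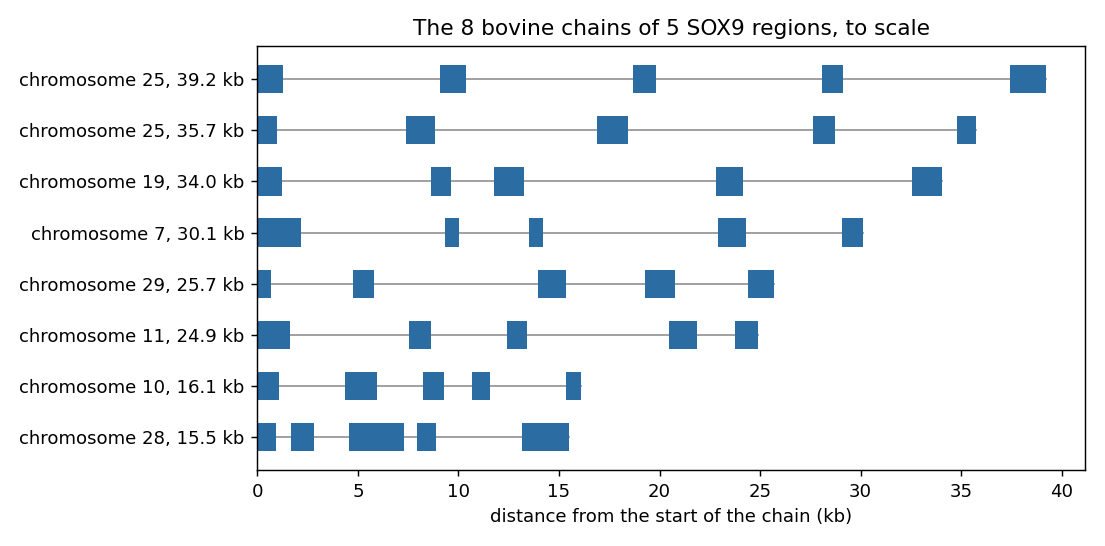
Layout of the 8 bovine chains of 5 SOX9 regions, drawn to scale as distance in kb from the start of each chain. Boxes are merged regions and lines the gaps between them, 1 chain per row, sorted by span from 39225 bp down to 15506 bp, and the top row shows the evenly spaced chain on chromosome 25.

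The 23 chains of 4 regions lay on 13 chromosomes. Chromosome 25 held 4 of them, from 26970187 to 26996775, 27744348 to 27766225, 36628176 to 36650825 and 36770931 to 36792070. The last 2 followed the evenly spaced chain of 5 within the same 1 Mb. Chromosome 3 held 3 (8339340 to 8361259, 16518665 to 16535769 and 85163323 to 85177250), and so did chromosome 7 (4668273 to 4693274, 13535994 to 13549058 and 45798274 to 45817173). On chromosome 10 there were 2, close to each other (21215537 to 21237645 and 21431049 to 21457803), and 193403 bp separated them. Chromosome 11 held 2 (49226750 to 49246366 and 79482459 to 79498498) and chromosome 19 held 2 (27581026 to 27597405 and 51964238 to 51980786).

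Single chains of 4 lay on chromosomes 2 (20808474 to 20833178), 5 (103929309 to 103946497), 16 (52351682 to 52372360), 18 (62459207 to 62482651), 21 (71383376 to 71400258), 22 (50577268 to 50594100) and 23 (7325856 to 7343246). The spans of all 23 ran from 13065 bp, on chromosome 7 at 13535994, to 26755 bp, on chromosome 10 at 21431049. Covered shares ran from 17.4% to 46.5%.

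The chain of 4 on chromosome 7 from 4668273 to 4693274 ended in the widest of all 11097 merged regions. That region (4688073 to 4693274) measured 5202 bp and was made of 3 peaks. The other regions of the chain measured 2021, 1330 and 2431 bp. The next widest members lay on chromosome 19 (38176119 to 38180838), with 4720 bp and 3 peaks, and on chromosome 11 (79486423 to 79490386), with 3964 bp and 2 peaks. In width these ranked 6 and 19 among all merged regions.

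The shortest spans belonged to chains of 3 whose gaps were all well under 2000 bp. The shortest lay on chromosome 19 from 43692556 to 43696860 and spanned 4305 bp, with regions of 936, 962 and 1119 bp and gaps of 643 and 645 bp. The only chain on chromosome 24 (61388761 to 61393393) came next at 4633 bp, with gaps of 1434 and 644 bp. Spans of 5356, 5582 and 5601 bp followed on chromosomes 13 (81872138 to 81877493), 11 (12370847 to 12376428) and 25 (1240724 to 1246324). At the other end, the longest spans were the chains of 5 on chromosomes 25, 25, 19 and 7 described above and then the chain of 4 on chromosome 10 of 26755 bp.

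Covered shares above 60% were reached by a few chains of 3. The highest, 74.6%, belonged to a chain of 3 on chromosome 19 from 59492139 to 59498421, with regions of 1455, 1828 and 1404 bp and gaps of 535 and 1061 bp. This chain was also the most secluded of the 178. Its nearest outside region was 799476 bp away on one side and 2315941 bp on the other. The chain of 3 on chromosome 25 from 39422495 to 39433165 followed with 72.1%. Its regions measured 2537, 3601 and 1551 bp and were made of 2, 3 and 1 peaks, so that 6 peaks became 3 regions. Shares of 70.1%, 67.6% and 66.3% belonged to the shortest chain on chromosome 19, a further one on that chromosome (23184692 to 23190969) and the chain on chromosome 13.

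The chain of 3 on chromosome 11 from 12370847 to 12376428 had regions of nearly equal width, at 1205, 1213 and 1193 bp. The ratio of its widest to its narrowest region, 1.02, was the lowest of all chains. It was also secluded, with 752025 bp to the nearest outside region. Across the 178 chains this ratio had a median of 1.76 and a highest value of 5.97. It was at least 2 in 62 chains (34.8%).

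Gaps inside chains covered the whole permitted range. The 395 gaps had a median of 4603 bp, quartiles at 2411 and 7032 bp, and a range from 516 to 9939 bp. Gaps inside the 889 pairs had a similar median of 4360 bp. At the short end the distributions parted: 25 of 395 gaps in chains (6.33%) and 129 of 889 gaps in pairs (14.5%) were under 1000 bp. Between 1 and 2 kb the shares were 14.9% and 12.8%. Beyond 1 kb, the gaps in chains numbered 29 to 59 in each class of 1 kb, with the most between 1 and 2 kb. Gaps of at least 9500 bp occurred in 16 chains.

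**Figure D2:**
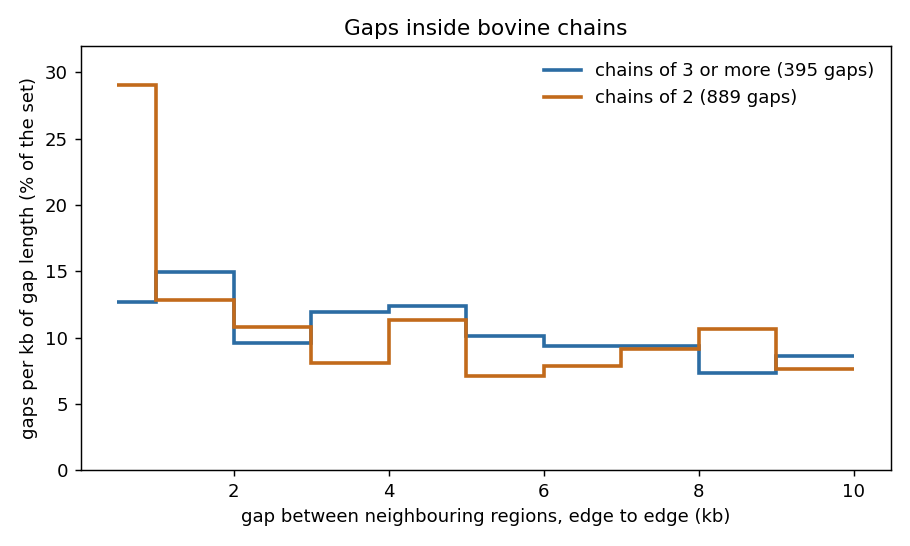
Gaps between neighbouring bovine regions, as the percentage of gaps per kb of gap length, for the 395 gaps in chains of 3 or more and the 889 gaps in pairs. The x axis is the edge-to-edge gap in kb, and the widest difference is in the class below 1 kb, where pairs stand at 29.0 and chains at 12.7% per kb.

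In chains of 3, the gaps of each chain were sorted by size, so a smaller and a larger gap arise by construction. How far unrelated gaps within the same limits would differ was not computed. The smaller gap had a median of 2991 bp and the larger of 6407 bp, and their ratio a median of 1.86. Both gaps were under 5000 bp in 47 of 147 chains and over 5000 bp in 32, and the remaining 68 had one of each. The ratio was at most 1.5 in 56 chains and over 5 in 22. In 4 chains the gaps differed by at most 20 bp, which was noticed only after the values were seen, and in the next closest by 87 bp. Beside the shortest chain on chromosome 19, these gaps were 8674 and 8678 bp on chromosome 15 (30107654 to 30128653), 9300 and 9314 bp in a chain of chromosome 29 (50688392 to 50711559), and 9616 and 9636 bp in a chain of chromosome 18 (14598925 to 14622392).

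The limit of 10000 bp left chains on either side of it. Just inside was a gap of 9939 bp on chromosome 5, between regions from 57626386 to 57639135. Chromosome 25 had gaps of 9879 bp (26835993 to 26848417) and 9862 bp (1529347 to 1541501) just inside, in separate chains of 3. Just outside were gaps on chromosome 18 (10035 bp, 53491316 to 53503446, and 10036 bp, 63106803 to 63120237) and on chromosome 25 (10044 bp, 39330597 to 39344173). Each of these, if bridged, would have formed or extended a chain of 3 or more, as would 19 gaps in all within 500 bp beyond the limit.

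Members were about as wide as regions in pairs and somewhat narrower than regions alone. Median widths were 1205 bp in chains (quartiles 955 and 1534 bp, n = 573), 1195 bp in pairs (953 and 1501.75 bp, n = 1778) and 1311 bp alone (1026.25 and 1612 bp, n = 8746). The same order held for regions made of 1 peak, with medians of 1181, 1171 and 1275 bp. Width enters both the merging and the edge-to-edge gap, so the difference was not tested. Regions wider than 2000 bp were 48 of the 573 members (8.38%), against 8.24% of all merged regions, 6.36% of those in pairs and 8.61% of those alone. The members' share of wide regions thus lay at the background.

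**Figure D3:**
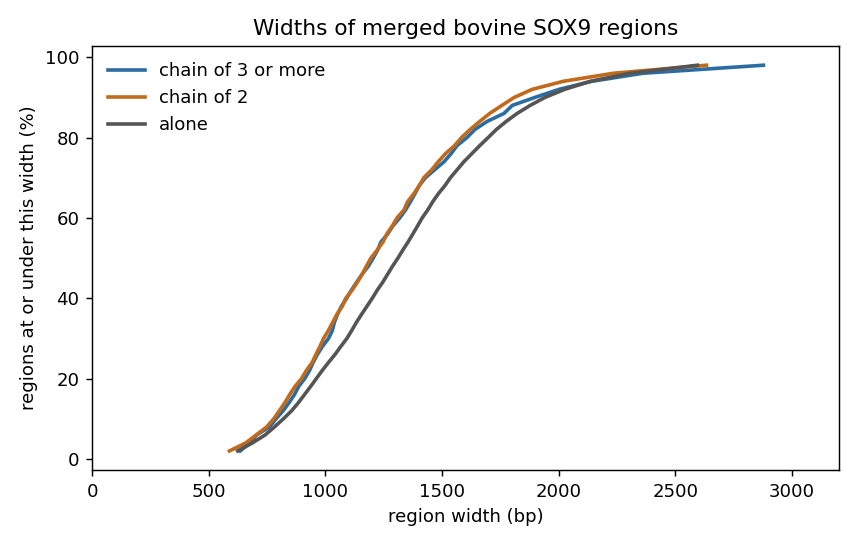
Cumulative widths of merged bovine regions in chains of 3 or more, in pairs ("chain of 2") and alone, with the width in bp on the x axis and the percentage of regions at or under it on the y axis, from 2 to 98%. The curves of chains and pairs lie almost on each other (medians 1205 and 1195 bp) and to the left of the curve of regions alone (1311 bp) over most of the range.

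Few members were themselves products of merging. Of the 573, 26 were made of 2 or more peaks (4.54%, against 5.99% of all merged regions), 22 from 2 peaks and 4 from 3. The corresponding shares were 4.84% in pairs and 6.32% for regions alone. End and inner regions had similar widths. The 356 regions at the ends of chains had a median of 1221.5 bp and the 217 inner ones of 1157 bp. In chains of 3 the widest region came first in 44, in the middle in 53 and last in 50, and the narrowest came first in 46, in the middle in 52 and last in 49.

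Chains were concentrated on 2 chromosomes. Chromosome 19 held 28 chains with 88 regions and chromosome 25 held 22 with 74. Together they held 28.1% of all chains and 9.89% of all merged regions. Per Mb between first and last peak, chromosome 25 had 0.516 chains and chromosome 19 had 0.473. Chromosomes 23 (0.155), 18 (0.154) and 7 (0.125) came next, the first 2 of them almost level. As a share of the merged regions of the chromosome, members were 18.0% on chromosome 25 and 12.8% on chromosome 19, against 4.11% on the other 27 chromosomes combined.

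Elsewhere chains were scattered. Chromosomes 7, 3, 11 and 18 held 14, 13, 12 and 10 chains. Between 4 and 8 were found on 10 chromosomes and between 1 and 3 on 9. Chromosome 1, which had the longest span at 158 Mb and 473 merged regions, held 2 chains. Chromosomes 6, 12, 20 and 27 held none, although they carried 832 merged regions and 65 pairs in all. The X, which is outside the numbered chromosomes, had 184 merged regions and 4 pairs and no chain of 3 or more.

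**Figure D4:**
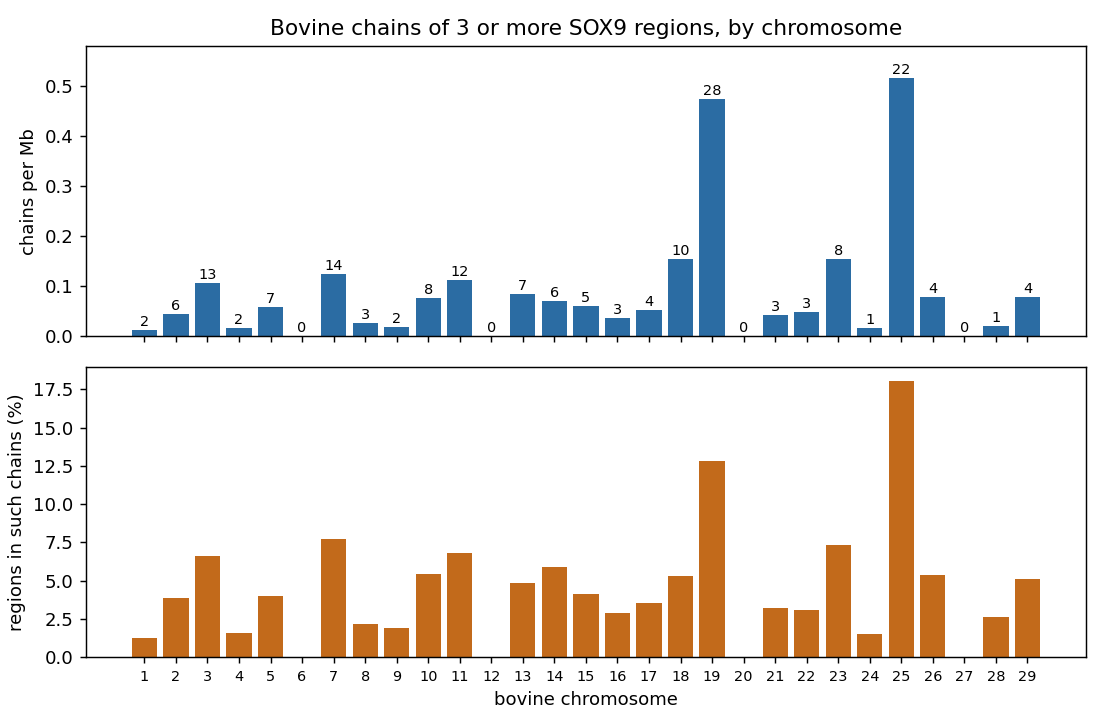
Chains of 3 or more regions per Mb (upper panel, with the number of chains above each bar) and the percentage of merged regions that lie in such chains (lower panel) for each of the 29 numbered bovine chromosomes. Chromosomes 25 and 19 stand above the others in both panels, at 0.516 and 0.473 chains per Mb, and chromosomes 6, 12, 20 and 27 are at 0.

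The share of regions in chains followed the density of regions along the chromosome. Across the 29 chromosomes, Pearson's r between merged regions per Mb and the percentage in chains was 0.86 and Spearman's rho 0.89. Without chromosomes 19 and 25 these were 0.75 and 0.87 (n = 27). These values are descriptions, since both measures come from the same peaks and closer spacing makes chains by the rule itself. Chromosome 19 was the densest, at 11.6 regions per Mb, followed by 25 (9.61), 18 (8.94) and 23 (6.61). The 4 chromosomes without a chain lay at 2.42 to 3.06.

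Some chromosomes departed from that order. Chromosome 18 ranked 3 by density and 10 by share in chains, with 5.34% of its 581 regions in 10 chains, although it carried 65 pairs. Chromosome 7, with 5.45 regions per Mb, had 7.70% of its 610 regions in chains. Chromosome 14 ranked 19 by density, at 3.61 regions per Mb, and 7 by share in chains, with 5.92% of its 304 regions in 6 chains. Chromosome 22 held a lower share, 3.13%, at 5.23 regions per Mb. Small numbers of chains stand behind most of these shares.

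**Figure D5:**
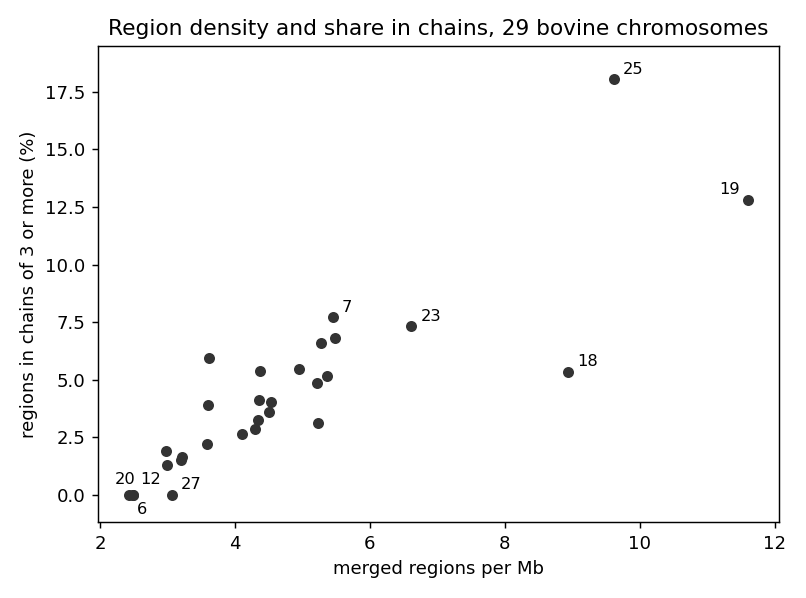
Merged regions per Mb (x axis) against the percentage of regions in chains of 3 or more (y axis), 1 point for each of 29 bovine chromosomes, with the 5 richest in chains per Mb and the 4 without a chain labelled by number. The share rises with density, and chromosome 18 (8.94 per Mb, 5.34%) lies well below chromosome 25 (9.61 per Mb, 18.0%) at a like density.

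Runs of short gaps restate the chains, because consecutive gaps within the limit join regions into a chain by the rule. Of all 11068 gaps between neighbouring merged regions, 11.6% were within the limit of 10 kb. Of the 1283 such gaps with a further gap after them, 217 (16.9%) were followed by one that was also within the limit. On chromosome 25 these percentages were 24.0% and 30.6%, on chromosome 19 they were 20.4% and 22.9%, and on the other 27 chromosomes 10.5% and 14.8%. The 217 gaps thus recount the chains already described and are no separate sign of clustering. These percentages describe this list and were not compared with a chance model.

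Chains on chromosome 25 had longer spans and wider gaps, by their medians, than those on chromosome 19. Their median span was 17144 bp against 13785.5 bp, with overlapping quartiles (12275.8 to 21693.5 and 11328.2 to 15539 bp), their median gap 6107.5 bp against 4337.5 bp and their median covered share 24.6% against 30.4%. Of the 22 chains on chromosome 25, 6 held 4 or 5 regions, as did 3 of the 28 on chromosome 19 and 22 of the 128 elsewhere. The other chromosomes had a median span of 14041 bp and a median gap of 4379 bp, near those of chromosome 19. Member widths had medians of 1259 bp on chromosome 25, 1155.5 bp on chromosome 19 and 1198 bp elsewhere.

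Many chains had a further chain nearby. Another chain lay within 1 Mb of 103 of the 178 (57.9%) and within 100 kb of 29. The distance to the nearest other chain had a median of 146839 bp on chromosome 25, 208646 bp on chromosome 19 and 1032241 bp on the rest. On chromosome 25, 21 of 22 chains had another within 1 Mb, while on chromosome 19 this held for 19 of 28. The closest couples were on chromosome 16 (52351682 to 52372360 and 52382963 to 52399083, 10602 bp apart), on chromosome 3 (85142566 to 85150687 and 85163323 to 85177250, 12635 bp apart) and on chromosome 29 (41643916 to 41662045 and the chain of 5 from 41679100, 17054 bp apart).

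Counted in windows of 1 Mb by midpoint, the 178 chains fell into 126 windows, of which 92 held 1 chain. The fullest was on chromosome 25 from 36000001 to 37000000, with 5 chains and 19 regions, and it contains the evenly spaced chain. Windows from 26000001 and from 1000001 on the same chromosome held 4 each. A further 11 windows held 3, on chromosomes 3, 7, 10, 14, 15, 19, 23 and 29. The chains of chromosome 25 lay in 3 stretches, from 557538 to 2600865, from 26467827 to 27766225 and from 34847356 to 39433165, with none between these.

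By the median, the nearest region outside was closer for chains than for pairs or regions alone, classes that were sorted by these same gaps. The nearest region beyond either end of a chain was at a median of 22587 bp (quartiles 15519.8 and 38334.2 bp). For pairs this distance was 36415 bp and for regions alone 52871 bp. All of these exceed 10 kb by the rule, and they were not compared within chromosomes. Chromosomes 19 and 25 held 28.1% of chains but 9.89% of merged regions. Median gaps there were 31.9 and 27.2 kb, against 72455 bp over all gaps. Along the chromosomes, 29.8% of chains and 26.8% of all merged regions lay in the last 20% of the span from first to last peak, and 22.5% and 18.4% in the first 20%. Between 20 and 40% of the span the shares were 12.9% and 17.9%.

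The same rule found far fewer chains in the mouse list. It gave 20 chains with 62 of 6191 merged regions, or 1.00%, against 178 chains and 5.16% in cattle. Of the mouse chains, 19 held 3 regions and 1 held 5, and they lay on 11 of the 18 numbered chromosomes in the list. Chromosome 19 was among these, so at least 1 lower-numbered mouse chromosome had no peak in the list. The median span of the mouse chains, 13548.5 bp, was close to the bovine 14219 bp, and their median gap was 5738.5 bp. Median covered share was 22.9% in mouse, where regions were narrower. The bovine list had 1.79 times as many merged regions. When the bovine list was restricted to its 6402 widest peaks, as many as the mouse list holds on numbered chromosomes, 23 chains with 71 regions (1.12%) were left. That choice was made after seeing the data. Regions alone were the wider ones in the full list, so a cut by width does not match the lists by length alone. Because the full lists differ in length, a difference between the species cannot be told apart from a difference in list length. The cut does not settle this, and depth and peak calling may differ as well.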

How the data were processed

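SOX9 ChIP-seq was analysed from the peak lists that the authors deposited, 1 per species, which the labels assign to its 2 SOX9 libraries and to its input alike. Beside chromosome, start and end, each deposited line has a value that equalled end minus start throughout and so is the peak width in bp. No source used here gives the aligner, the caller of the peaks, the threshold or the way replicates and input were used. The builds mm9 and UMD3.1 are from the submitters' processing notes. With no counts or heights, depth is unknown and no floor or replicate error can be given.

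Peaks of the numbered chromosomes were sorted by start, merged at gaps below 500 bp and chained at edge-to-edge gaps of at most 10000 bp with Python 3.11.15, numpy 2.4.6 and pandas 2.3.3. Merging and chaining were tested on 20 simulated lists. A chromosome's span runs from its first to its last peak. Intervals used for the alternatives are at 95% and were computed with scipy 1.17.1. Those of shares are exact binomial, and those of medians are sorted values taken at binomial ranks.

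No test was made, since spacing chose the members and peaks of 1 list are not replicates. The planned search for genes and motifs was not run for want of a genome of the build. The regions, chains and chromosomes named were all chains of 5 and 4, the 5 longest and 5 shortest spans, the 5 highest covered shares, the 5 chromosomes with most chains per Mb, those with none, and the regions next to the limit; others were chosen after their values were seen. Members, rule and descriptions were chosen with earlier results of these data known.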

Additional observations from a re-analysis of the deposited data

How the results depend on the processing

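Leaving out the merging, changing the chaining distance and keeping only the widest peaks each moved most values. A distance of 5000 bp gave 190 members in 61 chains, with a median span of 9849 bp, covered share of 42.9% and gap of 2644 bp. A distance of 20000 bp gave 1608 members in 445 chains, with 27331 bp, 15.8% and 9221 bp. Without merging, 931 peaks lay in 284 chains, and the median span was 11966 bp, covered share 32.1%, gap 3093 bp and member width 1137 bp. Measuring between midpoints gave a median span of 13142.5 bp, covered share of 29.8% and gap of 4114 bp. Among the widest 50% of peaks, 59 members in 19 chains were left on 12 chromosomes, with a median covered share of 35.2% and member width of 1451 bp, and the 3 chromosomes richest in chains held 42.1% of them. The 6402 widest peaks, chosen after seeing the data, left 71 members in 23 chains on 13 chromosomes, with 35.2% and 1420 bp.

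Of 99 alternative values, 51 lay within 1.5 times (counts) or within the 95% interval of the value reported. That interval treats members or chains of 1 list as independent, which they are not, so it is a yardstick of size and no measure of stability. Chromosomes 19 and 25 were among the 3 richest in chains per Mb in every setting tried, with 22.5% to 28.1% of all chains. The remaining place went to chromosome 23, 18 or 29, and with the widest 50% of peaks 29 came first. The settings of the widest peaks held only 19 and 23 chains in all, so their ranks rest on few chains. All settings reuse the same list and are no independent evidence for the ranks. Adding the X could change no value of the chains, since the X held no chain of 3 or more. These unchanged values are among the 51. Members had a lower median width than the other regions, most of which stood alone, in all settings. Pairs were not taken separately in the alternatives. As reported above, their median of 1195 bp was slightly below the members' 1205 bp. The chains of 5 or more numbered 0 among the widest peaks and 61 at 20000 bp. No paired analysis was possible because the labels assign 1 deposited list to all bovine libraries, so replicate numbers have no values of their own and no replicate could be left out. The alternatives that merge below 250 and 1000 bp moved no value listed here except the share of regions that are members (5.75% and 4.63%) and the width of other regions (1278 and 1306 bp). Depth is unknown, so regions too shallow to be called may lie inside or between chains.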
